A study of Homo sapiens with 6 samples.

Results

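Cadherins and protocadherins other than *CDH1* and *CDH2* were followed through the differentiation of human embryonic stem cells into definitive endoderm (DE). Members were chosen by gene symbol alone: CDH or PCDH followed by a number, and every symbol of the protocadherin alpha, beta and gamma clusters, with *CDH1* and *CDH2* left out. The rule took 86 of the 59050 gene symbols in the count table, namely 21 cadherins, 11 protocadherins that lie outside the clusters and 54 clustered protocadherins, of which 16 are alpha, 16 beta and 22 gamma genes. Between undifferentiated cells and DE, the changes in this family ran both ways: *PCDH7*, *PCDH10* and *CDH12* rose, *CDH9*, *CDH6* and *CDH7* fell, and 24 of the 31 clustered protocadherins with enough counts to test fell, where 18.8% of all genes tested were lower. The other 23 clustered genes had too few counts to be tested.

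The data are RNA-seq counts from HUES8, a long-established line of human embryonic stem cells, in 3 groups with 2 libraries each: undifferentiated cells (ES), cells on day 2 of endoderm induction (D2) and DE cells, whose labels name no day. ES cells were kept in mTeSR1 on Matrigel, and the D2 and DE cells had been moved to DMEM-F12 with 0.2% BSA and 100 ng/mL activin A, a TGF-beta family ligand. CHIR99021, which blocks GSK3 and thereby activates WNT signaling, was added for 24 h and then left out, for a number of days on which the labels and the methods differ and which the day 2 cells cannot have completed, at a concentration that the labels write as 2.5 mM and the methods of the study write in micromolar units. No gene was edited, all groups come from the same cell line, and the sources do not say whether the 2 libraries of a stage came from separate cultures: the methods mention replicate dishes for the metabolite work that also yielded the RNA, without naming those sequenced. The p-values therefore measure the spread between these libraries, which may be technical.

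The libraries held 12351684 and 15849872 counts in ES, 15000970 and 14843365 at D2 and 15490713 and 15970973 in DE. The 86 members together took 3385 and 4268 of these counts in ES, 4458 and 4910 at D2 and 4718 and 4401 in DE, so most single members rest on few reads. Expression is given as CPM, a gene's counts scaled to a common library size, normalized with edgeR's TMM factors, and a change is called where edgeR's quasi-likelihood test gave an adjusted p under 0.05 over the 18126 genes tested and the fitted fold change was at least 2. The stages matched their labels: all 8 endoderm markers were higher in DE than in ES (*SOX17* 0 and 0.386 CPM in ES against 232 and 188 CPM in DE), all 6 primitive streak markers were higher at D2 than in ES (*TBXT* 1.67 and 1.22 CPM against 95.2 and 104 CPM), and 4 of 6 pluripotency markers were lower in DE, *SOX2* among them (151 and 152 CPM against 26.8 and 29.9 CPM). In bulk RNA, fewer cells of a type and less RNA per cell cannot be told apart.

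Cadherins are single-pass membrane proteins whose extracellular repeats bind calcium and hold neighboring cells together. Classical cadherins bind catenins with their cytoplasmic tails and so reach the actin cytoskeleton, with type I members such as E-cadherin and N-cadherin making strong junctions and type II members sorting cells, above all in the nervous system. Protocadherins adhere more weakly and signal through other partners. The clustered protocadherins lie side by side on chromosome 5, where each alpha and gamma gene pairs its own first exon with constant 3′ exons that are shared within the cluster, and they give neurons a surface identity. In the embryo, many cells that pass through the primitive streak exchange E-cadherin for N-cadherin. Of these 2 genes, which lie outside the rule, *CDH1* stood at 60.5 and 59.2 CPM in ES, 60.8 and 62.6 CPM at D2 and 19.2 and 15 CPM in DE, so its level was lower in DE alone. *CDH2* stood at 19.9 and 19 CPM in ES, 65.9 and 69.5 CPM at D2 and 274 and 280 CPM in DE, higher at each stage.

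Of the 86 members, 54 passed edgeR's filter on low counts, 23 of the 32 outside the clusters and 31 of the 54 clustered ones. A member with low counts passes the filter through the stage where it is highest, so the counts of calls below describe these 54 and not the whole family. At D2 against ES, 5 members were higher and 21 lower, where 14.3% and 8.03% of all genes tested were higher and lower. In DE against ES, 3 were higher and 35 lower, against 20.5% and 18.8% of all genes tested. In DE against D2, 3 were higher and 16 lower, against 12.4% and 16.1%. The median fitted log2 fold change over the 54 members was -0.71 at D2 against ES, -1.34 in DE against ES and -0.69 in DE against D2, and over all genes tested it was 0.02, 0.02 and -0.02. The 3 comparisons share libraries pairwise and are not independent of each other. The 21 lower calls at D2 became 13 without replicate 1 of ES and 12 with DESeq2.

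The family kept its summed level while its makeup changed. All members together summed to 296.6 and 274.6 CPM in ES, 292.5 and 317.9 CPM at D2 and 287.2 and 283.1 CPM in DE. *PCDH10* held 3.66% and 3.44% of the members' counts in ES (95% Wilson confidence intervals 3.08% to 4.35% and 2.94% to 4.03%), 31.4% and 33.3% at D2 and 27.2% and 26% in DE. *PCDH7* held 0.443% and 0.328% in ES and 22.6% and 23.6% in DE (21.4% to 23.8% and 22.4% to 24.9%). Against this the alpha, beta and gamma clusters together went from 87.19 and 85.71 CPM in ES to 31.47 and 31.65 CPM in DE. These intervals cover counting error only, since reads without molecular identifiers are not independent molecules.

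Per kilobase of gene length, the order of the non-clustered members changed with stage. In ES the leading genes were *PCDH1* at 6 CPM per kb (5.46 and 6.55 in the 2 libraries), *CDH3* at 5.77 (5.66 and 5.87), *PCDH18* at 4.79 and *CDH24* at 4.14, where *PCDH1* and *CDH3* overlapped, as did *PCDH18* (4.45 to 5.12) and *CDH24* (3.62 to 4.65). At D2 they were *PCDH10* at 9.72 CPM per kb (9.03 and 10.4) and *CDH24* at 9.57 (9.49 and 9.64), which overlapped, followed by *CDH3* at 5.91. In DE, *PCDH10* led at 7.45 CPM per kb (7.22 and 7.67), *PCDH7* stood at 5.37 (5.29 and 5.46), *CDH24* at 4.78 (4.41 and 5.15) and *CDH3* at 4.18 (4.14 and 4.22). *PCDH7* and *CDH24* did not overlap in DE, and the range of *CDH24* lay above that of *CDH3*.

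**Figure D1:**
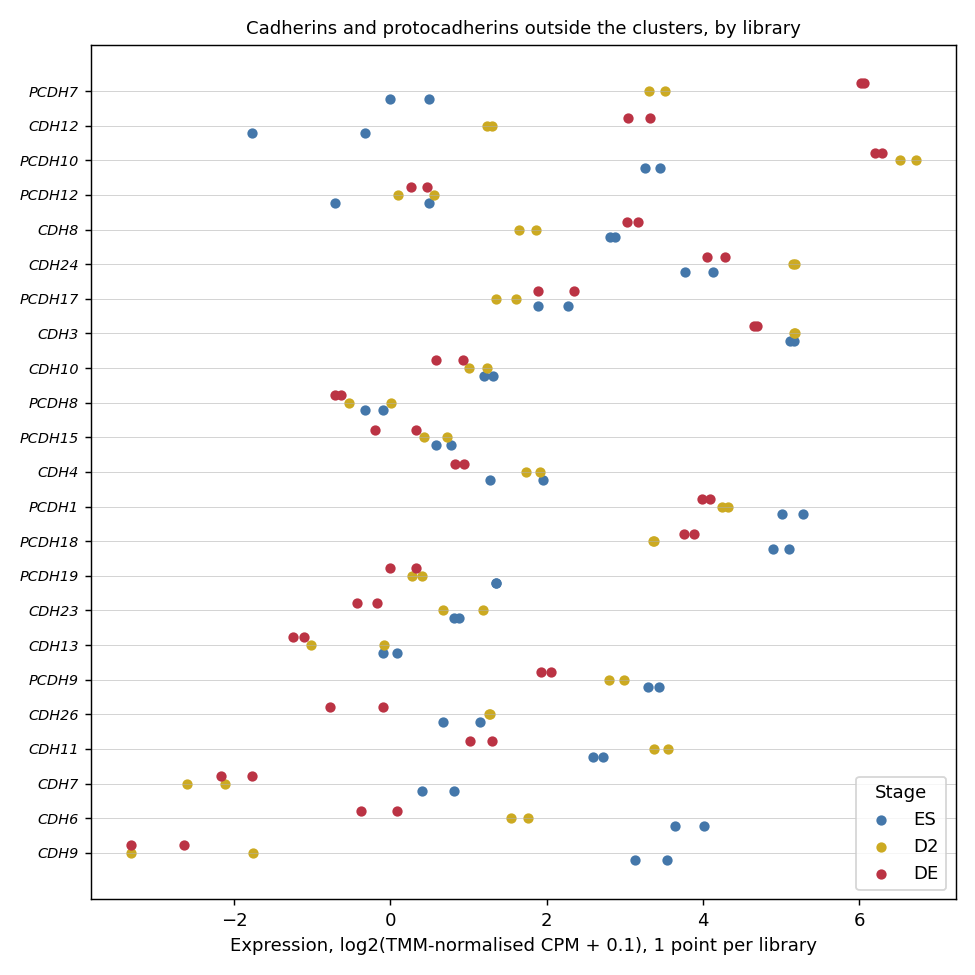
Expression of the 23 non-clustered members that were tested, as log2(TMM-normalized CPM + 0.1) on the x axis with 1 point per library, in ES (blue), D2 (yellow) and DE (red), ordered by their fitted change in DE against ES. *PCDH7* steps up at each stage to 64.8 and 66.8 CPM in DE, and *CDH9* at the bottom drops from 11.6 and 8.62 CPM in ES to the left edge, where 1 D2 and 1 DE library have no count.

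*PCDH7* (chromosome 4, 30720369 to 31146805, plus strand, GRCh38), a delta-1 protocadherin whose delta-class tail carries motifs conserved within the class, had the largest fitted fold change upward of the tested members in DE against ES. It measured 1.31 and 0.901 CPM in ES, 9.78 and 11.3 CPM at D2 and 64.8 and 66.8 CPM in DE. The 3 stages did not overlap and each step was upward. The fitted log2 fold change was 3.28 ± 0.223 (SE) at D2 against ES (adjusted p = 8.33e-13), 5.92 ± 0.181 in DE against ES (3.94e-21) and 2.64 ± 0.122 in DE against D2 (1.42e-16).

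The other members of delta-1 moved the opposite way. *PCDH1*, a protocadherin of epithelial cells, measured 38.6 and 32.2 CPM in ES, 19.9 and 18.8 CPM at D2 and 16.9 and 15.7 CPM in DE, with a log2 fold change of -1.12 ± 0.123 in DE against ES (adjusted p = 6.23e-09). Without replicate 1 of ES that change was -0.98, under the fold limit. *PCDH9* measured 10.7 and 9.72 CPM in ES, 6.83 and 7.83 CPM at D2 and 3.71 and 4.05 CPM in DE, with a log2 fold change of -1.39 ± 0.185 in DE against ES (1.98e-07). In both genes every ES library was above every D2 library, and every D2 library above every DE library. The summed level of the 3 delta-1 genes, 50.64 and 42.86 CPM in ES and 85.35 and 86.59 CPM in DE, therefore follows *PCDH7*.

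*PCDH10* (chromosome 4, 133149294 to 133208606, plus strand), a delta-2 protocadherin that binds the WAVE complex, an actin regulator, was the other protocadherin called higher in DE against ES. It measured 10.9 and 9.46 CPM in ES, 91.9 and 106 CPM at D2 and 78.1 and 73.5 CPM in DE. It had reached its highest level by D2 and was slightly lower in DE, with no overlap between the stages. The log2 fold change at D2 was 3.29 ± 0.122 (adjusted p = 1.2e-18) and 2.91 ± 0.122 in DE (5.31e-18), both against ES, and -0.38 in DE against D2 (0.0014), which is under the fold limit.

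*PCDH18*, a delta-2 gene that also lies on chromosome 4, went the other way. It measured 34.3 and 29.7 CPM in ES, 10.3 and 10.2 CPM at D2 and 13.4 and 14.7 CPM in DE. Both later stages lay below ES, and DE lay slightly above D2. The log2 fold change at D2 was -1.64 ± 0.132 (adjusted p = 2.99e-11) and -1.18 ± 0.126 in DE (3.31e-09). *PCDH19*, a delta-2 gene on the X chromosome that is known for a female-limited epilepsy, measured 2.45 and 2.44 CPM in ES, 1.12 and 1.23 CPM at D2 and 1.16 and 0.901 CPM in DE. Its fall in DE was called at -1.24 ± 0.356 (0.00321). Its fall at D2 (-1.06 ± 0.351, 0.0139) was lost without replicate 2 of ES (adjusted p = 0.0635), without replicate 1 of D2 (0.0764), with DESeq2 (0.0914) and with scaling by library size alone (log2 fold change -0.95).

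The remaining non-clustered protocadherins were not called in any of the 3 comparisons. *PCDH17* measured 4.73 and 3.6 CPM in ES, 2.95 and 2.46 CPM at D2 and 4.99 and 3.6 CPM in DE, and its log2 fold change of 0.67 in DE against D2 (adjusted p = 0.0247) was under the fold limit. *PCDH8*, known as a paraxial protocadherin that is active in gastrulating mesoderm, stayed between 0.515 and 0.906 CPM in the 6 libraries. *PCDH12*, an endothelial protocadherin, lay between 0.515 and 1.38 CPM, and *PCDH15*, a protein of hair-cell tip links, between 0.772 and 1.61 CPM. *PCDH20* had at most 3 counts in any library and was not tested. Since 446 of its exon bases (8.74%) are free of another annotated gene on its own strand, and reads that overlap several genes may not have been counted, these low counts are not read as an absence of expression.

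Among the type II cadherins, 8 of 13 were tested. *CDH12* (chromosome 5, 21750673 to 22853344, minus strand), a brain cadherin, measured 0.701 and 0.193 CPM in ES, 2.36 and 2.27 CPM at D2 and 8.1 and 9.91 CPM in DE. The 3 stages did not overlap. The log2 fold change at D2 was 2.47 ± 0.432 (adjusted p = 2.53e-05) and 4.43 ± 0.344 in DE (4.97e-12) against ES, and 1.95 ± 0.239 in DE against D2 (7.07e-08). Its low ES level sets the size of the rise: in DE the log2 fold change was 5.49 without replicate 1 of ES and 3.67 without replicate 2, and at D2 it was 3.53 and 1.71.

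*CDH9* (chromosome 5, 26880597 to 27121150, minus strand), a type II cadherin of synapses, was nearly lost on differentiation. It measured 11.6 and 8.62 CPM in ES, from 132 and 134 counts, and had 3 and 0 counts at D2 and 1 and 0 counts in DE. The ratio of ES to D2 was 101 with a 95% counting interval of 34.2 to 492, and the ratio of ES to DE was 315 with an interval of 56.1 to 1.25e+04. The fitted log2 fold change at D2 was -6.56 ± 0.463 (adjusted p = 1.86e-12) and -7.98 ± 0.54 in DE (2.51e-13). At D2 it moved to -10.21 without replicate 1 of D2, which leaves a D2 library at 0, and to -5.6 without replicate 2. In DE it moved to -10.19 without replicate 1 of DE and to -7.16 without replicate 2.

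*CDH6*, a cadherin of kidney epithelium and neural crest that follows *CDH9* on the short arm of chromosome 5, fell in 2 steps. It measured 16.1 and 12.3 CPM in ES, 2.82 and 3.3 CPM at D2 and 0.67 and 0.965 CPM in DE. No stage overlapped another. The log2 fold change at D2 was -2.2 ± 0.204 (adjusted p = 4.96e-10) and -4.1 ± 0.256 in DE (3.94e-14) against ES, and -1.9 ± 0.318 in DE against D2 (1.03e-05). *CDH7*, a cadherin of migrating neural crest, had 19 and 19 counts in ES, 2 and 1 at D2 and 2 and 3 in DE. The ratio of ES to D2 was 14.4 with a counting interval of 4.57 to 73, and the log2 fold change was -3.75 ± 0.673 at D2 (3.57e-05) and -3.12 ± 0.608 in DE (5.69e-05). *CDH10*, whose gene lies between *CDH12* and *CDH9*, measured 2.19 and 2.38 CPM in ES and 1.4 and 1.8 CPM in DE and was not called in any comparison.

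*CDH24*, *CDH11* and *CDH8* had fitted changes of opposite sign in the 2 steps, and *CDH8* alone was called in both. *CDH24* measured 13.6 and 17.4 CPM in ES, 35.6 and 36.1 CPM at D2 and 19.3 and 16.5 CPM in DE. Its rise at D2 was 1.2 ± 0.129 on the log2 scale (adjusted p = 1.03e-08), its change from D2 to DE of -1 ± 0.125 after rounding (9.94e-08) was just under the fold limit, and DE overlapped ES (0.2, 0.205). *CDH11*, a mesenchymal cadherin, measured 5.96 and 6.5 CPM in ES, 10.2 and 11.6 CPM at D2 and 2.37 and 1.93 CPM in DE. Its DE libraries were the lowest and its D2 libraries the highest. Its log2 fold change at D2 of 0.8 (0.000412) was under the fold limit, and it was -1.53 ± 0.223 in DE against ES (8.22e-07) and -2.33 ± 0.204 in DE against D2 (1.11e-10). *CDH8* measured 6.92 and 7.21 CPM in ES, 3.54 and 3.04 CPM at D2 and 8.89 and 8.04 CPM in DE. It dipped at D2 (-1.1 ± 0.203, 5.07e-05) and rose from D2 to DE (1.36 ± 0.194, 9e-07), and the dip was -0.99, just under the fold limit, without replicate 2 of D2 and with scaling by library size alone.

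The type II genes that were not tested included markers of other lineages. *CDH5*, the cadherin of endothelial junctions, had 0 and 0 counts in ES, 4 and 2 at D2 and 0 and 1 in DE. *CDH20* had 3 counts in ES and 19 in DE over both libraries of a stage, a ratio of 5.34 with a counting interval of 1.57 to 28.2, and 14 of these 19 came from a single library. *CDH18* reached at most 4 counts in a library, and *CDH19* and *CDH22* reached at most 2. At this depth a change in *CDH19* and *CDH22* was not detectable.

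No type I member was called in any comparison. *CDH3*, the P-cadherin of epithelia and placenta, measured 35.7 and 34.4 CPM in ES, 36 and 35.8 CPM at D2 and 25.1 and 25.7 CPM in DE. Its DE libraries were the lowest, with a log2 fold change of -0.46 ± 0.108 in DE against ES (adjusted p = 0.000456), which is under the fold limit. *CDH4*, the R-cadherin of retina and other neural tissue, measured 3.77 and 2.32 CPM in ES, 3.67 and 3.24 CPM at D2 and 1.83 and 1.67 CPM in DE, with -0.76 in DE against ES (0.0306). *CDH15*, the cadherin of muscle precursors, had at most 2 counts in a library and was not tested.

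The atypical cadherins were low throughout. The 3 of 5 that were tested were called lower in DE against ES, against 18.8% of all genes tested, and each of these calls was lost under at least 1 alternative. *CDH26*, a cadherin reported on epithelial cells, measured 1.49 and 2.12 CPM in ES, 2.3 and 2.33 CPM at D2 and 0.487 and 0.836 CPM in DE, with a log2 fold change of -1.47 ± 0.415 in DE against ES (adjusted p = 0.00278) and -1.8 ± 0.393 in DE against D2 (0.000291). The first of these was lost without replicate 2 of ES (0.0662) and without replicate 1 of DE (0.0512). *CDH23*, the partner of *PCDH15* in hair-cell tip links, measured 1.67 and 1.74 CPM in ES and 0.791 and 0.643 CPM in DE (-1.24 ± 0.413, 0.00993), which was lost without replicate 2 of ES (0.0531), without replicate 2 of DE (0.0662) and with DESeq2 (0.056). *CDH13*, a cadherin anchored in the membrane by a lipid and without a cytoplasmic tail, measured 0.964 and 0.837 CPM in ES and 0.365 and 0.322 CPM in DE (-1.36 ± 0.572, 0.0383). This call was lost when any 1 of the 6 libraries was left out. It was also lost with a replicate block (0.0559), with DESeq2 (0.158), without a filter on low counts (0.0538) and with scaling by library size alone (0.057). *CDH16*, the cadherin of kidney, and *CDH17*, the cadherin of liver and intestine, had at most 1 and 2 counts in a library.

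**Figure D2:**
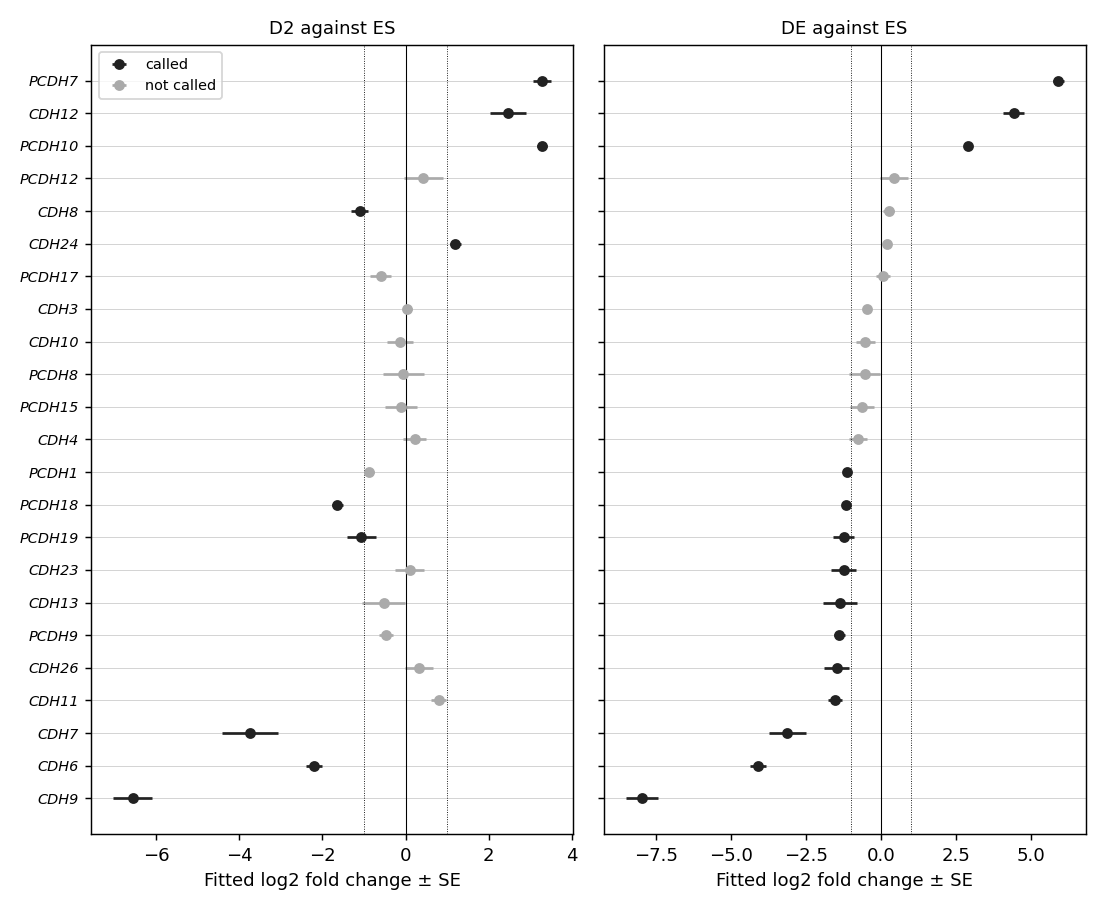
Fitted log2 fold changes with standard errors for the 23 tested non-clustered members, at D2 against ES on the left and in DE against ES on the right, in black where called and in grey where not, with dotted lines at a fold change of 2. *PCDH7*, *PCDH10* and *CDH12* lie right of the upper line in both panels and *CDH9*, *CDH6* and *CDH7* left of the lower line in both, while *CDH24* and *CDH8* are past a line at D2 and near 0 in DE.

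The clustered protocadherins lie within chromosome 5 between 140786136, the start of *PCDHA1*, and 141512977, the end of *PCDHGC3* (plus strand, GRCh38). Because alpha genes share their 3′ exons with each other, and gamma genes likewise, a read in a shared exon cannot be given to a single gene. The length of exon that no other gene overlaps on either strand was a median of 49.3% of the gene for alpha members, 94.7% for beta members, which do not share exons in this way, 56.2% for gamma members and 100% for members outside the clusters. *PCDHA1* has 7 such bases, or 2726 when its own strand alone is considered, and the pseudogene *PCDHA14* has 0. Both had 0 counts in every library, and since the strand setting of the counting is not known, the 0 of *PCDHA1* is not read as an absence of expression. Levels of clustered genes are therefore compared between stages and not between genes.

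Of the 31 clustered members tested, 15 were lower and 1 higher at D2 against ES, against 8.03% and 14.3% of all genes tested. With DESeq2 the lower calls over all members at D2 went from 21 to 12, and nearly all of those lost were clustered genes. In DE against ES 24 were lower, and in DE against D2 12 were lower, against 16.1% of all genes tested. With DESeq2 the lower calls over all members in DE against D2 went from 16 to 11, and those lost were clustered genes. In DE against ES, 3 more members passed the adjusted p with a fold change under 2, all of them lower, and 4 did not pass it. In the alpha cluster 9 of 10 tested genes were lower in DE than in ES, in the beta cluster 5 of 8 and in the gamma cluster 10 of 13, against 18.8% of all genes tested. Many of these genes have low counts and passed the filter through the stage where they were highest, so these shares do not extend to the untested genes, whereas the following sums take in every clustered gene. The summed alpha level was 33.65 and 31.85 CPM in ES, 16.67 and 21.11 CPM at D2 and 13.03 and 12.55 CPM in DE. The summed beta level was 23.92 and 24.84 CPM in ES, 12.73 and 12.95 CPM at D2 and 9.741 and 10.36 CPM in DE. The summed gamma level was 29.62 and 29.02 CPM in ES, 14.96 and 19.43 CPM at D2 and 8.706 and 8.75 CPM in DE. In all 3 clusters both ES libraries lay above both D2 libraries, and both D2 libraries above both DE libraries.

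**Figure D3:**
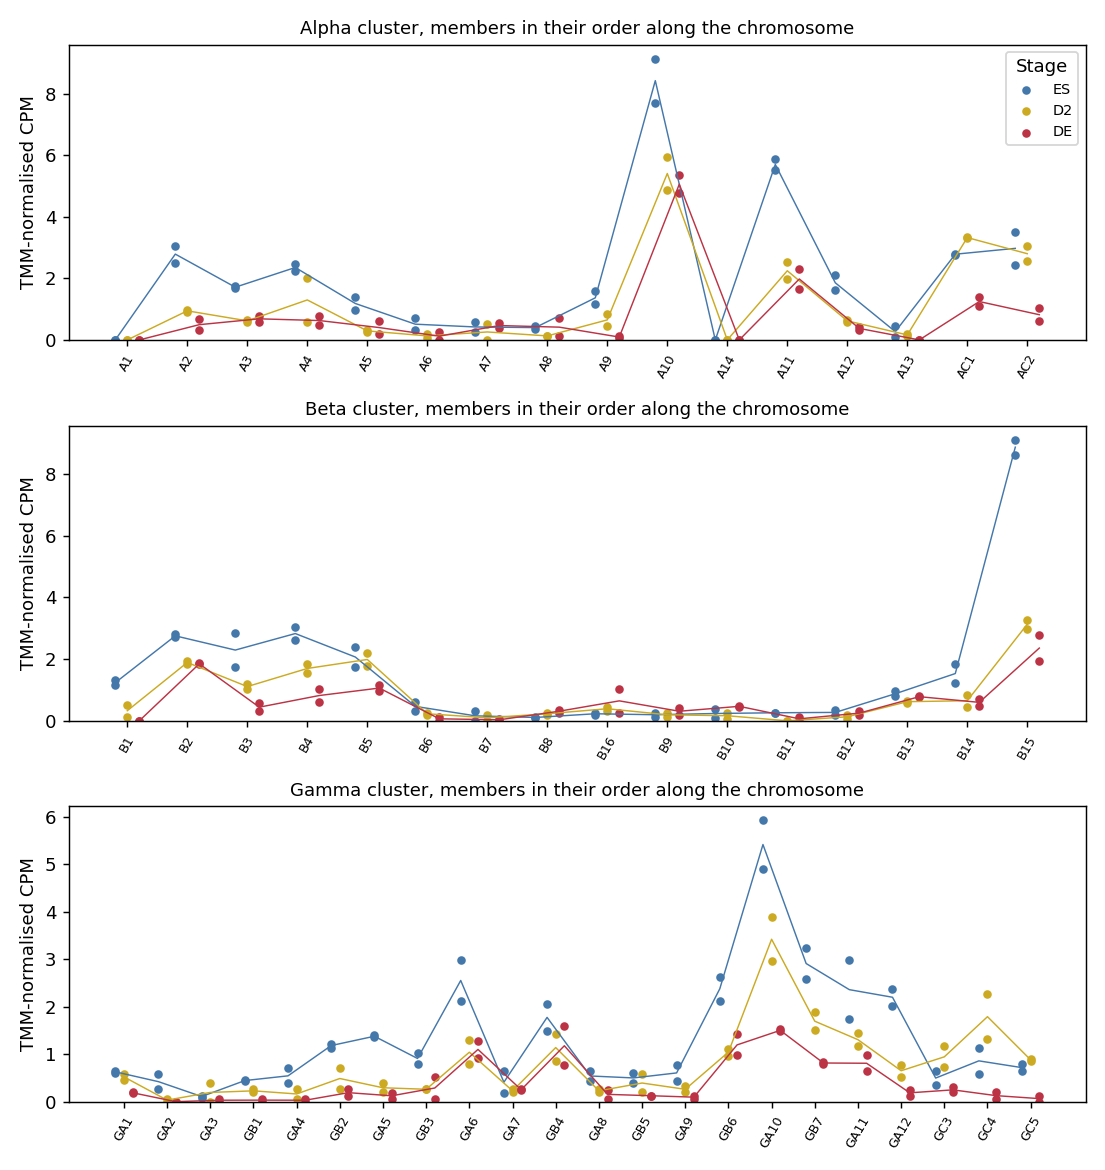
TMM-normalized CPM of every clustered protocadherin in its order along chromosome 5, with 1 point per library, lines through the stage means, and a panel each for alpha (top), beta (middle) and gamma (bottom), whose y axes differ in scale and are not corrected for gene length or shared exons. The ES points of *PCDHA11*, *PCDHB15* and *PCDHGA10* lie above their D2 and DE points, and at the right end of the alpha and gamma panels the mean of 4 of the 5 C-type genes is higher at D2 than in ES, all but *PCDHAC2*.

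In the alpha cluster *PCDHA11* measured 5.87 and 5.53 CPM in ES, 1.97 and 2.52 CPM at D2 and 1.64 and 2.32 CPM in DE, with a log2 fold change at D2 of -1.34 ± 0.257 (adjusted p = 8.72e-05) and -1.52 ± 0.26 in DE (9.63e-06). D2 and DE overlapped, and no further fall was called in DE against D2 (-0.19 ± 0.294, 0.6). *PCDHA10* measured 7.71 and 9.14 CPM in ES, 4.86 and 5.96 CPM at D2 and 5.36 and 4.76 CPM in DE, and its change in DE of -0.74 (0.0011) was under the fold limit. Among the tested genes, the largest alpha falls in DE were in *PCDHA9*, with 18 and 18 counts in ES against 2 and 1 in DE (ratio 14.2, counting interval 4.49 to 72.2), *PCDHA2* (-2.45 ± 0.417, 9.16e-06, and -3.06 without replicate 1 of DE) and *PCDHA12* (-2.26 ± 0.476, 0.000142).

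In the beta cluster *PCDHB15*, the last gene of the row, measured 9.11 and 8.62 CPM in ES, 3.28 and 2.98 CPM at D2 and 1.95 and 2.77 CPM in DE, with a log2 fold change at D2 of -1.5 ± 0.214 (adjusted p = 1.29e-06) and -1.91 ± 0.222 in DE (1.75e-08). Both later stages lay far below ES. *PCDHB1*, at the other end of the row, had 15 and 18 counts in ES, 8 and 2 at D2 and 0 and 0 in DE, so it was at least 13-fold lower in DE against a floor of 3 counts over the stage. Placing it at that bound leaves the medians given above as they are. *PCDHB3* fell to 0.304 and 0.579 CPM in DE from 1.75 and 2.83 CPM in ES (-2.39 ± 0.449, 3.46e-05). *PCDHB2* was not called in any comparison, with 2.8 and 2.7 CPM in ES and 1.83 and 1.87 CPM in DE, and *PCDHB5* had -0.98 ± 0.364 in DE against ES (0.0197), under the fold limit.

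In the gamma cluster *PCDHGA10* measured 4.91 and 5.92 CPM in ES, 2.95 and 3.88 CPM at D2 and 1.52 and 1.48 CPM in DE. It stepped down at each stage without overlap, with a log2 fold change of -1.86 ± 0.27 in DE against ES (adjusted p = 8.57e-07). *PCDHGB7* fell in DE by 1.81 on the log2 scale (7.13e-05), and *PCDHGA11* by 1.49 (0.00184), the latter lost without replicate 1 of ES (0.0552). Among the tested genes, the largest gamma falls in DE were *PCDHGA12*, from 2.02 and 2.38 CPM to 0.243 and 0.129 CPM (-3.5 ± 0.53, 1.56e-06), *PCDHGA5* (-3.37 ± 0.643, 4.27e-05, and -4.23 without replicate 1 of DE) and the C-type gene *PCDHGC5*.

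The C-type genes were also summed apart from the other clustered genes. *PCDHAC1*, *PCDHAC2*, *PCDHGC3*, *PCDHGC4* and *PCDHGC5* stand at the 3′ ends of the alpha and gamma arrays and are known for steadier use than the other isoforms, which are chosen at random in each neuron. Together they summed to 8.587 and 7.078 CPM in ES, 8.793 and 10.68 CPM at D2 and 2.374 and 2.638 CPM in DE. Both D2 libraries were above both ES libraries, and DE lay far below both stages. The other 49 clustered genes summed to 78.6 and 78.63 CPM in ES, 35.57 and 42.8 CPM at D2 and 29.1 and 29.01 CPM in DE, so most of their fall had come by D2, and the alpha genes among them overlapped between D2 (10.76 and 14.76 CPM) and DE (11.02 and 10.42 CPM). Of the 5 C-type genes 1 was higher and 4 were not called at D2 against ES, 4 were lower in DE against ES and 5 were lower in DE against D2. Of the 26 other clustered genes tested 15, 20 and 7 were lower in these comparisons. Most of the members' lower calls lost with DESeq2 at D2 and in DE against D2 were among these 26. Of all genes tested, 8.03%, 18.8% and 16.1% were lower, and 14.3% were higher at D2. The difference between the C-type and other genes was not tested, and the 5 C-type genes share 2 sets of constant exons.

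*PCDHAC2* measured 3.5 and 2.44 CPM in ES, 2.56 and 3.04 CPM at D2 and 0.609 and 1.03 CPM in DE, with a fitted change of -0.06 ± 0.3 at D2 (adjusted p = 0.882, log2 scale) and -1.83 ± 0.366 in DE (7.54e-05). *PCDHAC1* measured 2.8 and 2.77 CPM in ES, 3.35 and 3.3 CPM at D2 and 1.4 and 1.09 CPM in DE (-1.15 ± 0.317 in DE, 0.00228, and -0.97 without replicate 2 of DE). Both genes held their level at D2 within the spread of the libraries or slightly above it, and dropped afterwards. *PCDHGC4*, the only clustered gene called higher at D2, measured 1.14 and 0.579 CPM in ES, 1.31 and 2.27 CPM at D2 and 0.0609 and 0.193 CPM in DE. Its rise at D2 (1.11 ± 0.455, 0.044) was lost without replicate 2 of ES (0.385), without replicate 2 of D2 (0.423), without replicate 2 of DE (0.0509) and with DESeq2 (0.234). From D2 to DE it fell (-3.75 ± 0.628, 1.03e-05), by a log2 fold change that was -3.14 without replicate 1 and -4.68 without replicate 2 of DE. *PCDHGC5* had 9 and 10 counts in ES, 13 and 14 at D2 and 0 and 2 in DE, a ratio of D2 to DE of 14.1 with a counting interval of 3.53 to 122. Its fitted log2 fold change in DE against D2 of -3.65 was -2.68 without replicate 1 and -6.71 without replicate 2 of DE. *PCDHGC3* was called in DE against D2 alone (-1.88 ± 0.595, 0.00806), and that call was lost without replicate 2 of D2 (0.143), without replicate 2 of DE (0.0923) and with DESeq2 (0.0771).

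**Figure D4:**
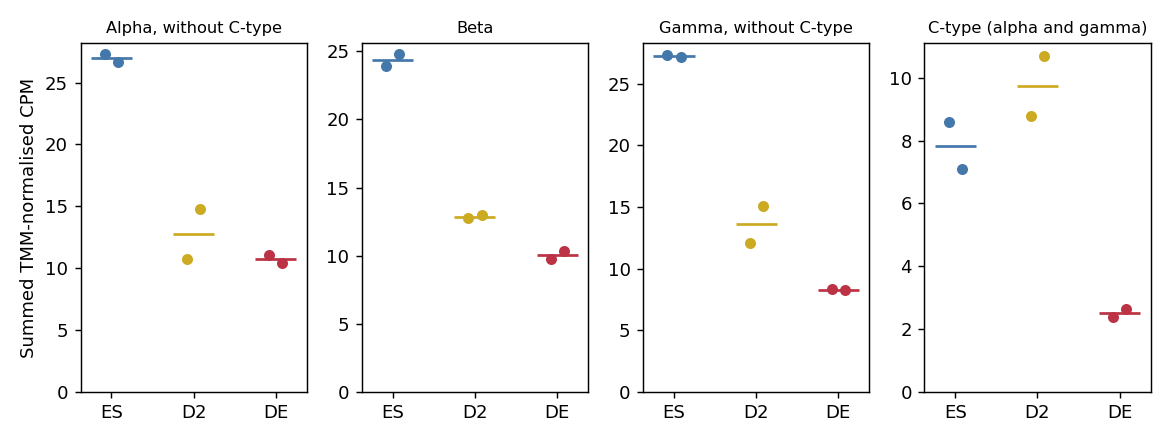
Summed TMM-normalized CPM per library (points) and its mean per stage (bars) for the alpha, beta and gamma genes without the C-type genes and for the 5 C-type genes, with y axes that start at 0 and differ in scale. The first 3 panels fall mostly between ES and D2, and the C-type panel falls between D2 (8.793 and 10.68 CPM) and DE (2.374 and 2.638 CPM).

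The other 23 clustered genes did not pass the filter. Their mean CPM was lower in DE than in ES in 15, higher in 6 and at 0 in both in 2, and together they summed to 7.098 and 8.365 CPM in ES, 3.806 and 4.921 CPM at D2 and 4.505 and 3.603 CPM in DE. Both ES libraries lay above the later ones, and D2 and DE overlapped. Their highest count in any library was 17, in *PCDHB16*, which had 3 and 3 counts in ES, 5 and 7 at D2 and 17 and 4 in DE. *PCDHB10* had 7 counts in ES over both libraries and 15 in DE, and *PCDHB8* 3 and 10. In the other direction, *PCDHGA4* had 14 counts in ES and 1 in DE, and *PCDHGA2* 12 and 0, at least 4.74-fold lower. Such genes were left out of the counts of calls above.

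The promoters of most clustered genes are known to carry a conserved element with a CGCT core that *CTCF*, the protein that loops enhancers to the chosen promoter, can bind. The RefSeq promoter windows (GRCh38.p14, 250 bases before to 50 after the annotated start) held CGCT on either strand in 12 of 13 alpha, 14 of 14 beta and 20 of 20 gamma genes with a window, and in 70% of all 35116 windows, so the 4 letters alone set nothing apart. Longer strings around them did differ between the clusters. For each cluster the string of 10 bases with CGCT in it that the most genes carried was taken, and all windows were then searched for it on both strands. TGATGTCGCT was present in 8 of 13 alpha genes and in no beta or gamma gene, GGTGGCGCTG in 12 of 14 beta genes and in no alpha or gamma gene, and GCGCCGCTGT in 9 of 20 gamma genes and in no alpha or beta gene, against 0.0342%, 0.276% and 0.131% of all windows. Since the strings were picked for being frequent in a cluster, these shares are a description. For the tested genes described above that have such a window, 24 bases around a CGCT are shown, 5′ to 3′ on the plus strand. Where a promoter held several, the CGCT whose surroundings were most like those in the other genes of the cluster was taken. The capitals mark these 4 letters and do not show that the conserved element is present:
PCDHA2 (chr5:140794787-140794810): cacatgatgtCGCTgtccaccata
PCDHA10 (chr5:140855847-140855870): caccggatgtCGCTgtcgtccaca
PCDHA11 (chr5:140868889-140868912): cgcaaggtgtCGCTctttacttgg
PCDHA12 (chr5:140875250-140875273): cacatgatgtCGCTctacactcag
PCDHAC1 (chr5:140926226-140926249): aaggtgtggtCGCTcacgttcacc
PCDHAC2 (chr5:140966371-140966394): agtccgggttCGCTgtccgccact
PCDHB1 (chr5:141051280-141051303): ggagttgagtCGCTcaatgcaaat
PCDHB2 (chr5:141094550-141094573): cgcggggtggCGCTgcagccttag
PCDHB3 (chr5:141100399-141100422): cgcatggtggCGCTgttgactaag
PCDHB5 (chr5:141135185-141135208): cgcctggtggCGCTgcaggctaag
PCDHB15 (chr5:141245320-141245343): cgcatggtggCGCTgcaggctaag
PCDHGA5 (chr5:141364113-141364136): ctctgagtgtCGCTgttgaccaaa
PCDHGA10 (chr5:141412937-141412960): ctctgagcgcCGCTgttcacctac
PCDHGB7 (chr5:141417613-141417636): gcagagcaagCGCTgacgccgggg
PCDHGA11 (chr5:141420978-141421001): ctctaggcgcCGCTgctcaccaat
PCDHGC3 (chr5:141475886-141475909): ctctgtgtgcCGCTgtcggccaat
PCDHGC4 (chr5:141484958-141484981): gcccgggagcCGCTgtctgccaat

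Each window was compared with the best-matching CGCT window of every other gene of its cluster that had one, and the shared bases were averaged. All windows hold CGCT and the best match was taken each time, so these averages are raised by construction. *PCDHB15* shared 20.6 of 24 bases, *PCDHA2* 18.1 and *PCDHGA10* 17.8, whereas *PCDHAC1* and *PCDHAC2* shared 11.5 each, *PCDHB1* shared 12 and *PCDHGB7* shared 9.3. The C-type genes of the gamma cluster lay higher, *PCDHGC3* at 17.5 and *PCDHGC4* at 14.8. *PCDHB5*, at 20.2 of 24, lay close to *PCDHB15*. Their log2 fold changes in DE against ES were -0.98 ± 0.364 and -1.91 ± 0.222, and the difference between them was not tested. How the windows relate to the changes in expression was not tested either. The CGCT taken in this way lay at a median of -55.0 bases from the start in alpha genes, -61.5 in beta genes and -63.5 in gamma genes, where a negative position is before the start. A match is a description of the sequence and not of binding, which was not measured.

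Genes that act with these proteins were read from lists. Of the 15 regulators of the clusters (*CTCF*, cohesin and its loaders, DNA methyltransferases and others), 1 was called in DE against ES, lower, against 18.8% of all genes tested. It was *DNMT3B*, a de novo DNA methyltransferase, with 558 and 577 CPM in ES, 267 and 284 CPM at D2 and 109 and 106 CPM in DE. *STAG1*, a cohesin subunit, was lower at D2 (-1.32 ± 0.107, adjusted p = 3.7e-11) and recovered in part in DE. *CTCF* itself measured 38.5 and 42.6 CPM in ES and 62.3 and 59.6 CPM in DE (0.59, 9.63e-06), which is under the fold limit.

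Of 16 catenins and junction plaque genes, which link cadherins to the cytoskeleton, 14 were tested. In DE against ES 7 were higher, against 20.5% of all genes tested, 4 more were higher with a fold change under 2, and 3 were not called. *PKP2*, a desmosomal plaque protein, went from 5.78 and 6.05 CPM in ES to 122 and 129 CPM in DE, *JUP* (plakoglobin) from 20 and 24.6 CPM to 105 and 95.5 CPM, *CTNNBIP1*, an inhibitor of beta-catenin, from 4.56 and 6.05 CPM to 24.8 and 21.7 CPM, and *CTNNB1* (beta-catenin) from 109 and 148 CPM to 289 and 294 CPM.

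Of the rest of the cadherin superfamily, 20 of 26 genes were tested, with 1 higher and 8 lower in DE against ES, against 20.5% and 18.8% of all genes tested. *FAT3*, a giant atypical cadherin, fell from 83.9 and 78 CPM in ES to 7.79 and 6.82 CPM in DE (-3.46 ± 0.129, adjusted p = 3.3e-19), and *CELSR2*, a seven-pass cadherin of planar cell polarity, from 25.1 and 25.9 CPM to 3.29 and 1.74 CPM (-3.33 ± 0.189, 5.06e-15). *DCHS2*, a Dachsous cadherin, went from 13 and 18 counts to 0 and 4. *DSC3*, a desmosomal cadherin, had 9 and 20 counts in ES, 32 and 28 at D2 and 0 and 0 in DE. *DCHS1*, a ligand of *FAT4*, was the gene called higher, from 8.06 and 8.75 CPM to 19.7 and 20.4 CPM (1.25 ± 0.143, 1.37e-08). A further 3 genes were higher and 2 lower with a fold change under 2.

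Of 7 tested transcription factors known to repress cadherin genes, 5 had a higher level at D2 than in ES and 1 a lower level, where 14.3% and 8.03% of all genes tested were higher and lower. In DE against ES 3 were higher, against 20.5%, and 4 were not called. *SNAI1* measured 1.49 and 1.35 CPM in ES, 14.6 and 13.5 CPM at D2 and 6.82 and 5.79 CPM in DE, and *TWIST1* had 0 counts in both ES libraries, 16 and 14 at D2 and 23 and 16 in DE. *SNAI1* was highest at D2 and *TWIST1* had counts at both later stages. *ZEB1* measured 1.14 and 1.09 CPM in ES, 2.3 and 3.5 CPM at D2 and 4.5 and 4.12 CPM in DE (1.95 ± 0.313, adjusted p = 3.96e-06). Of 11 proteases that shed or process cadherins, *FURIN* was higher in DE (11.5 and 10.7 CPM against 48.4 and 46.1 CPM) and *ADAM15* lower (5.34 and 6.76 CPM against 1.77 and 1.09 CPM), against 20.5% and 18.8% of all genes tested. Of 13 genes of the WAVE complex and kinases downstream of protocadherins, 3 were called in DE against ES, all higher, *WASF1* (log2 fold change 1.75 ± 0.162), *CYFIP1* (1.21 ± 0.113) and *PTK2* (1.01 ± 0.0961), a share close to the 20.5% of all genes tested that were higher.

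Markers of other cell types were read beside these results, since many members are best known from neurons, vessels, muscle or mesenchyme. Their counts of calls in DE against ES stand against 20.5% higher and 18.8% lower among all genes tested. The 8 neural markers summed to 103.7 and 95.04 CPM in ES, 205.5 and 184.4 CPM at D2 and 301.2 and 311.1 CPM in DE, with *NES* the most abundant gene at every stage. Of the 5 tested, 1 was higher in DE against ES (*PAX6*, 1.93 and 2.19 CPM against 148 and 146 CPM) and 3 were lower, *MAP2* (5.78 and 4.76 CPM against 0.0609 and 0.257 CPM), *DCX* and *TUBB3*. *SOX1* had at most 3 counts in a library, and *NEUROG2* had 0 in both DE libraries. The 8 endothelial markers summed to 144.1 and 141.4 CPM in ES, 178 and 175.5 CPM at D2 and 19.42 and 21.81 CPM in DE, nearly all of it *KDR*, with *PECAM1* at 0 in the ES and D2 libraries and at 6 and 4 counts in DE. Of the 3 tested, 1 was higher (*ESAM*) and 2 were lower (*KDR* and *ERG*) in DE against ES.

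The 6 mesoderm markers summed to 6.835 and 6.692 CPM in ES and 36.47 and 36.99 CPM in DE, and the 3 tested were all higher in DE, with *PDGFRA*, a receptor of mesoderm and of endoderm, the most abundant (6.13 and 5.92 CPM against 33.1 and 34.5 CPM), while *MSGN1* was at 0 in all 6 libraries and *MESP1* and *FOXF1* at 0 in ES. The 4 muscle markers summed to at most 1.93 CPM, with *MYOG*, at 0 in ES, the one tested and higher in DE (0.913 and 1.67 CPM), and *MYOD1* at 0 in 5 of 6 libraries. The 7 trophoblast and amnion markers summed to 24.62 and 18.72 CPM in ES and 157.6 and 139.7 CPM in DE, with 3 higher and 1 lower in DE, and this sum was mostly *GATA3* (0.438 and 0.901 CPM against 100 and 84.5 CPM) and *ISL1* (0.35 and 0.45 CPM against 40.8 and 38.7 CPM), with *KRT7* at 0 in DE. The part of other cell types in the changes of the members was not tested.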

How the data were processed

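RNA was extracted from HUES8 cells at 3 stages with 2 libraries each; in the study's methods it came from the precipitate left after metabolite extraction. The authors aligned the reads to GRCh38 with HISAT2 2.1.1, per the submitters' processing notes, and counted them on genes with featureCounts. The authors deposited these raw counts for each gene in each library, beside a gene length. The annotation, the strand setting and the handling of reads that overlap several genes are not given in the sources used here.

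The analysis used edgeR 4.0.16 (R 4.3.3). All 6 libraries were put in a joint fit with filterByExpr, TMM factors (0.926 to 1.06), glmQLFit and glmQLFTest, and Benjamini-Hochberg adjustment ran over 18126 genes. There were 3 residual degrees of freedom, and the common biological coefficient of variation was 0.0734. With 2 libraries per stage no exact permutation test between 2 stages can reach p under 0.05, so p-values rest on edgeR's model. The libraries within a stage differed beyond sampling noise (chi-square per degree of freedom 4.1 to 8.89, against 56.3 to 161 between stages). Replicate numbers are shared between stages, but the sources do not say that they pair libraries, so no block was used.

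Gene positions and exclusive exon lengths came from GENCODE version 44 on GRCh38. Its gene lengths equalled the deposited ones for 41 of 86 members and lay within 5% for 81. Promoter windows came from RefSeq (67 members matched by symbol). Ratios of low counts have exact 95% intervals conditional on the summed counts, and a stage at 0 was set to 3 counts. Scripts in Python 3.11.15 used numpy 2.4.6, pandas 2.3.3, scipy 1.17.1 and matplotlib 3.10.9, and the fit was tested on simulated counts.

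Every member outside the clusters that was called is named, and of each cluster the 3 with the most counts per kb (used for naming alone) and the 3 largest called changes in DE against ES; of the other lists at most 4 called genes are named. *PCDHB16*, *PCDHB10*, *PCDHB8*, *PCDHGA4*, *PCDHGA2*, *STAG1*, *CTCF*, *ESAM*, *DCHS1* and the C-type genes beyond this rule were named after their values were seen. Members and lists were chosen with earlier results of these data known. The alternatives were other scalings, DESeq2 1.42.0, other filters, a replicate block, the 2 compared stages alone, the adjusted p without a fold limit, the fold rule of the methods on TPM + 0.1 with TPM above 2, and each library left out in turn.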

Additional observations from a re-analysis of the deposited data

How the results depend on the processing

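Members higher at D2 against ES numbered 5, and 3 with at least 10 counts required in every library and 2 with the fold rule on TPM. Members lower at D2 against ES numbered 21, and 12 with DESeq2, 8 with at least 10 counts and 4 with the TPM rule, and from 13 (without ES replicate 1) to 20 with a library left out. Members lower in DE against ES numbered 35, and 16 with at least 10 counts and 3 with the TPM rule. Members higher in DE against D2 numbered 3, and 5 with the adjusted p alone, and from 3 to 5 (without DE replicate 1) with a library left out. Members lower in DE against D2 numbered 16, and 10 with at least 10 counts and 0 with the TPM rule. These limits also leave fewer members to test: 30 with at least 10 counts, and 8, 10 and 7 above the TPM limit in the 3 comparisons. Over the alternatives that refit the counts, 1011 of 1113 fold changes of called members kept their call, 102 were lost and 0 reversed. This tally holds only refits in which the member was still tested, so calls removed by a stricter filter are not among the losses. The TPM rule and the adjusted p alone are not part of it. With scaling by the upper quartile the median log2 fold change of all genes was -0.15 in DE against ES and -0.19 in DE against D2, where TMM gave 0.02 and -0.02, and scaling by library size alone gave medians of 0.13 and 0.11 at D2 and in DE against ES. A left-out library leaves its stage with 1 library, which is assumed to vary like the others.

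Libraries that share a replicate number did not deviate together (correlations of -0.0109 for ES and D2, -0.0383 for ES and DE and -0.0432 for D2 and DE). With the replicate number as a block, 4 members were higher and 19 lower at D2 against ES, 3 and 34 in DE against ES, and 3 and 16 in DE against D2. At D2 against ES *PCDHGC4* (adjusted p = 0.0729, edgeR), *PCDHB14* (0.0525) and *PCDHGB2* (0.0608) lost their calls. In DE against ES *CDH13* lost its call (0.0559). Low counts limit most clustered genes, and reads in shared exons cannot be assigned.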
